A study of Drosophila melanogaster with 15 samples.

Results

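Kc167 is a cell line that was established from Drosophila melanogaster embryos, and the data described here are its transcriptome after treatment with control dsRNA. It was read in the 3 libraries labelled Control of the 15 RNA-seq libraries of the series. Replicates 1 and 3 received dsRNA with the sequence of GST and replicate 2 dsRNA with the sequence of GFP, so an effect of the control dsRNA cannot be told apart from one of the replicate. The remaining 12 libraries, whose dsRNA targeted H2A.V, TIP60, DOM-A or DOM-B, entered only an alternative scaling. The labels name a single line, no transgene and no further treatment, and give neither the passage nor the clonality of the culture. Every library also contained D. virilis 79f7Dv3 cells, which were added to the Kc167 cells before RNA was extracted, as a spike-in. RNA was enriched by its poly(A) tail and libraries kept the strand of the transcript.

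Drosophila lines from embryos often carry features of hemocytes, the blood cells of the fly. In the animal, hemocytes are specified by the GATA factor Srp and its cofactor Ush. Most of them become plasmatocytes, macrophages that engulf dead cells and microbes and deposit much of the basement membrane. Crystal cells make the enzymes of melanization, and lamellocytes encapsulate large parasites. The PVR receptor, a relative of the PDGF and VEGF receptors, is known for the survival and migration of hemocytes.

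The libraries held 11452017, 11624976 and 12642096 reads on D. melanogaster genes in replicates 1, 2 and 3, and levels are given as reads per 1000000 of these (CPM). A level of 1 CPM was therefore between 11.5 and 12.6 reads per library, and 3 reads, the limit that a count of 0 allows, lay between 0.237 and 0.262 CPM. The D. virilis share of all counted reads was 16.0% to 16.6%. Both genomes were mapped independently, and the share of D. virilis reads counted on conserved D. melanogaster genes was not measured. Antisense reads were 2.99% to 3.04% of sense and antisense gene reads together. Intervals and limits of this kind cover counting error only, and the spread between libraries covers the variation between these 3 samples, which the series calls biological replicates.

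Of 17481 genes in the count tables, 7491 (42.9%) had at least 1 CPM in every library and are referred to as expressed. A further 5469 genes (31.3%) had no read in any library, and 4521 (25.9%) lay between, 2034 of them with only 1 to 3 reads in all libraries together. With 0 of 35719089 reads, a level of up to 0.084 CPM remains possible. Expressed genes had a median of 42.9 CPM, and 90% of them fell between 2.80 and 391 CPM, a 139.6-fold range. The levels formed a broad peak with 1003 genes between 39.8 and 63.1 CPM, the fullest log10 step of 0.2 above 1 CPM, and a trough of 238 genes between 2.51 and 3.98 CPM. Below the trough the number of genes rose again toward a few reads.

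**Figure D1:**
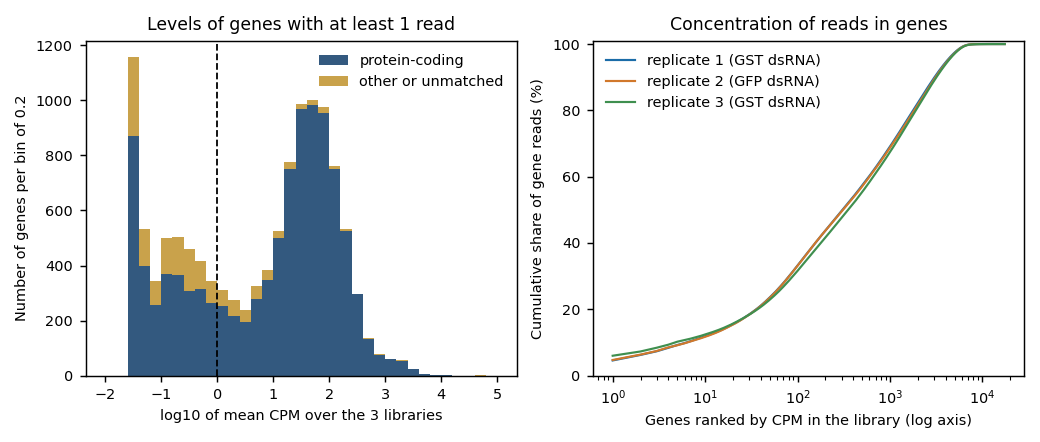
Left, number of genes by the log10 of their mean CPM over the 3 Control libraries, for the genes with at least 1 read; the dashed line marks 1 CPM and colours separate protein-coding from other genes. Right, cumulative share of gene reads in each library for genes ranked from the most-read gene (log axis). The peak lies near 42.9 CPM, the median of expressed genes, and the curves of the 3 libraries nearly coincide, with the 100 most-read genes at 31.6% to 33.2% of reads.

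Reads were concentrated in few genes. The 10 most-read genes held 11.9%, 11.7% and 12.4% of gene reads in replicates 1, 2 and 3, the 100 most-read genes 33.2%, 33.1% and 31.6%, and the 1000 most-read genes 69.1%, 68.7% and 67.4%. It took 308, 311 and 354 genes to reach 50% of reads and 3037 to 3183 genes to reach 90%. Above 1000 CPM lay 149 genes, and 1806 genes lay between 100 and 1000 CPM.

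The most-read transcripts belonged to translation. mt:lrRNA, the large ribosomal RNA of the mitochondrion, had 45711, 47056 and 59918 CPM. eEF1alpha1, the elongation factor that brings tRNA to the ribosome, had 16672, 16276 and 12873 CPM. Both showed replicate 3 apart, above the other replicates for mt:lrRNA and below them for eEF1alpha1. The other genes among the 10 most-read were mt:CoI (a subunit of cytochrome c oxidase, mean 10876 CPM), the elongation factor eEF2 (10349 CPM), the cytoplasmic actin Act5C (7526 CPM, with the largest spread of the 10 relative to its mean at 8412, 5198 and 8968 CPM), the poly(A)-binding protein pAbp (5530 CPM), the ribosomal proteins RpL5 (5391 CPM) and RpL3 (3810 CPM), and the chaperones Hsc70-4 (5332 CPM) and Hsp83 (4049 CPM). CPM rises with transcript length, so values in CPM of different genes, here and below, are not corrected for length. Only CPM per kilobase (kb) of exon is divided by exon length. On that scale mt:lrRNA led again with 38440 CPM per kb, followed by RpL41 with 11350, mt:CoI with 7080, eEF1alpha1 with 6199 and RpL21 with 5344. The small mitochondrial ribosomal RNA, mt:srRNA, had 142 CPM per kb. How far the poly(A) selection shaped the levels of these ribosomal RNAs was not tested. Of the 20 highest genes on this scale, 15 encoded cytosolic ribosomal proteins and 3 were mitochondrial, and the others were eEF1alpha1 and eEF2.

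Cytosolic ribosomal protein genes took 17.6%, 17.7% and 15.5% of gene reads in replicates 1, 2 and 3. Of 92 such genes, 86 were expressed. The 6 others, RpL22-like, RpL37-2, RpL10Aa, RpL7-like, RpS28-like and RpS28a, had between 0 and 8 reads, and they are paralogues beside an expressed gene of nearly the same name. The 100 most-read genes comprised 58 of the family, 4 mitochondrial genes and 38 others. Outside the ribosome these 38 included laminin LanA with 4382, 3665 and 2448 CPM, the hnRNP sqd (mean 2777 CPM), the tubulin alphaTub84B (2366 CPM), the lactate dehydrogenase Ldh (2191 CPM), the histone variant gene His3.3B (2032 CPM) and the fatty acid synthase FASN1 (1515 CPM). LanA, an extracellular matrix subunit, was the 18th gene by CPM, but its long transcript brought it to 299 CPM per kb. These 6 were singled out after their values were seen.

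Gene groups needed by every growing cell differed in how many members were expressed, beside 51.7% of all protein-coding genes. All 8 subunits of the chaperonin CCT (for example CCT1 with 272, 270 and 300 CPM and CCT2 with 536, 578 and 562 CPM) and all 33 aminoacyl-tRNA synthetases were expressed, as were 71 of 72 mitochondrial ribosomal proteins. Of the helicase subunits and origin factors of DNA replication, 9 of 10 were expressed, with Mcm2 at 237, 235 and 218 CPM and Orc5 at 26.3, 25.5 and 28.2 CPM. Proteasome subunits were expressed for 33 of 40 genes. Of the 7 others, 6 are paralogues whose names end in R or T, such as Rpt4R with 3 reads and Prosalpha6T with none. The respiratory chain and ATP synthase had 64 of 84 genes expressed, and 18 of the 20 others carry a name with the suffix L for "like". The vacuolar ATPase had only 17 of 32 genes expressed (53.1%), close to the share of all protein-coding genes. Isoform genes such as Vha100-3 and Vha16-2 had 0 reads.

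A count of 0 was not always a silent gene. Reads that fall on exons of more than 1 gene on the same strand were not assigned to either by the counting. In the annotation, 374 of 13834 protein-coding genes had over 90% of their exon length inside exons of other genes on the same strand, and 344 of these had no read. They make up 10.4% of the 3314 protein-coding genes without reads. The other 2970 are not above this limit of 90%, and smaller overlaps among them were not examined. Among the 344 were Orc3 (an origin recognition subunit), mRpL53 (a mitochondrial ribosomal protein) and ND-MNLL (a complex I subunit), each of which is missing from a group above. RpL7-like, a ribosomal protein gene named above as not expressed, is also among the 344, with 98.8% of its exon length covered. ND-B8, the other respiratory gene without the suffix L that was not expressed, had 8 reads and is not among the 344. Near-identical copies are a further limit, because reads with several positions were discarded. Prosalpha1 and Prosalpha1R, neighbours that encode versions of the same proteasome subunit, both had 0 reads, and their level is uncertain. The Hsp70 copies are uncertain for the same reason.

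The 4 hemocyte markers given for the line were checked first. In bulk RNA, a lower share of cells of a type and less RNA per cell cannot be told apart, and levels below are averages over the culture. srp (chromosome 3R, 15986152 to 16004085, BDGP6.54) had 362, 265 and 363 CPM, and Hml, which encodes the clotting protein hemolectin of plasmatocytes (3L, 13846054 to 13860001), had 1205, 822 and 1358 CPM. Col4a1, a chain of collagen IV (2L, 5029609 to 5037279), had 276, 351 and 212 CPM. Pxn, the extracellular peroxidase peroxidasin (3L, 2601455 to 2630064), had 35.2, 13.4 and 27.7 CPM. All 4 were thus present in every library. Pxn was the lowest of them per length, at 4.27 ± 1.85 CPM per kb (SD, n = 3), against 96.0 ± 23.4 for Hml, and replicate 2 was the lowest for Pxn, Hml and srp and the highest for Col4a1.

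Of the 19 genes of a hemocyte list, 15 were expressed, which is 78.9% beside 51.7% of all protein-coding genes. The list's median was 53.5 CPM, beside 2.44 CPM for all protein-coding genes and 42.9 CPM for expressed genes. Per kb its median was 14.7 CPM, below the 19.5 CPM per kb of the median expressed gene. The transcription factors ush (193, 208 and 253 CPM) and zfh1 (396, 335 and 466 CPM) and the receptor Pvr (690, 594 and 802 CPM) were expressed in every library. gcm and gcm2, the factors that drive plasmatocyte and glial fate in the embryo, had 1 and 0 reads in all. The receptors for engulfment were uneven, also per kb, with 41.5 CPM per kb for crq, 14.7 for drpr, 4.43 for eater and 1.33 for NimC1. crq, a scavenger receptor of the CD36 family, had 130, 116 and 109 CPM, drpr, the engulfment receptor Draper, 71.5, 66.2 and 72.7 CPM, and eater 12.8, 16.5 and 14.6 CPM. NimC1, a phagocytosis receptor of larval plasmatocytes, had 2.79, 2.07 and 8.31 CPM, Sr-CI had 1.75, 1.46 and 2.06 CPM, NimC4 had 0.611, 1.55 and 2.06 CPM, and NimC2 had no reads. He, the hemocyte surface protein hemese, had 15.02, 13.3 and 58.8 CPM and stood higher in replicate 3 than in both others.

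The lists for the other blood cells are short. None of 5 crystal cell genes was expressed, beside 51.7% of all protein-coding genes. PPO1, a prophenoloxidase, had 0 reads, PPO2 had 4 reads in all, and lz, the Runx factor of the lineage, had 6. Of 4 lamellocyte genes 2 were expressed (50%), which is near the 51.7% of all protein-coding genes. These were cher (the filamin cheerio, 278, 256 and 413 CPM) and PPO3, the lamellocyte prophenoloxidase, with 32.6, 34.2 and 23.1 CPM. atilla, the surface marker of lamellocytes, had 0.175, 0.172 and 1.11 CPM, and the integrin gene ItgaPS4 0.175, 0.258 and 0.633 CPM. PPO3 thus stood without the surface marker, while cher is also expressed in many other cells.

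**Figure D2:**
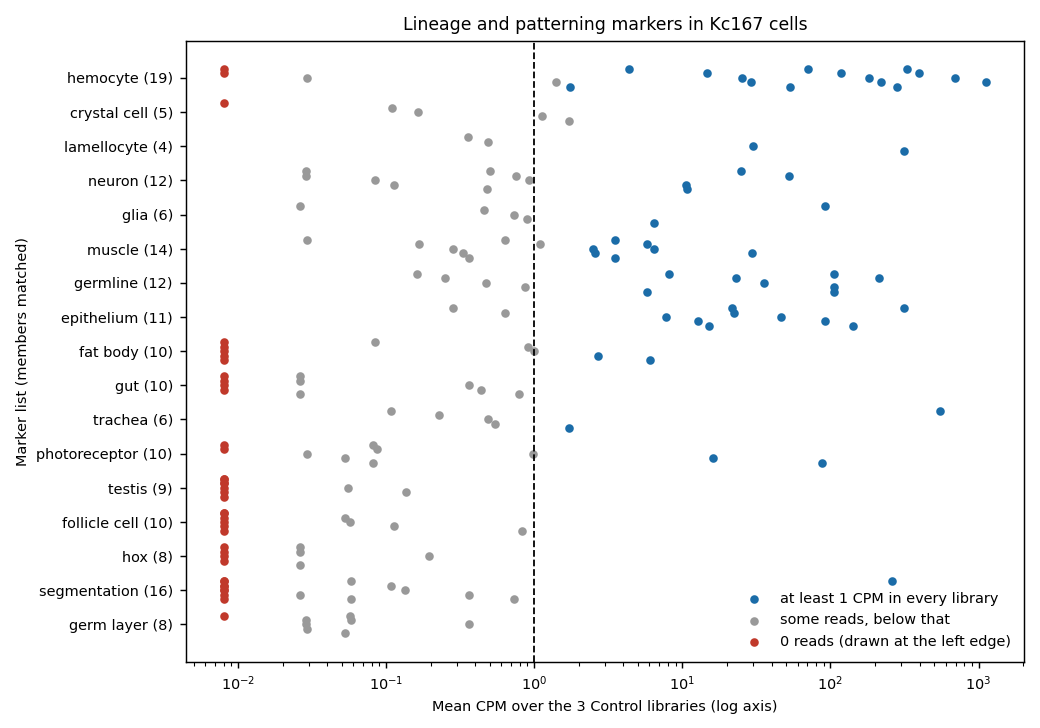
Mean CPM over the 3 Control libraries (log axis) for each member of 17 marker lists of cell types and of embryonic patterning, with the number of members in brackets; colours give the expression class and the dashed line marks 1 CPM. Hemocyte genes lie mostly between 10 and 1128 CPM, whereas gut, testis, follicle cell, hox and germ layer genes lie at or below 1 CPM without exception, and hry is alone on the right for segmentation.

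Among tissues with markers of structure, muscle genes were present at low levels. Mef2, the master regulator of muscle that also acts in other cells, had 25.4, 31.4 and 31.9 CPM. Of 14 muscle genes 7 were expressed (50%), which is near the 51.7% of all protein-coding genes. Mef2 averaged 3.22 CPM per kb, Act57B 3.74 and Act88F 3.60, against 19.5 CPM per kb for the median expressed gene. The actin genes Act57B and Act88F had 5.59, 6.02 and 7.75 CPM and 4.89, 5.94 and 6.41 CPM, and the myosin heavy chain gene Mhc had 0.873, 1.204 and 1.19 CPM. Actin genes resemble each other and Act5C closely, which had 7526 CPM on average, and the level of the low copies is uncertain. With a limit of 5 CPM in every library 2 muscle genes remained.

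Neuronal genes were expressed for 4 of 12 members (33.3%, beside 51.7% of all protein-coding genes). These were elav, the pan-neuronal RNA-binding protein (30.04, 18.7 and 26.2 CPM), the active zone protein brp (54.7, 43.4 and 60.6 CPM), the sodium channel para (13.3, 10.4 and 8.70 CPM) and the microtubule protein futsch (10.1, 8.69 and 13.1 CPM). All have long transcripts, and per kb the highest, brp, reached 3.95 CPM, below the 19.5 CPM per kb of the median expressed gene. With a limit of 1 CPM per kb only 2 of the list were left. Genes for transmitter use, ChAT, VAChT, VGlut, Gad1 and Rdl, had 17, 1, 1, 4 and 3 reads in all. The glial factor repo had 1 read, and of 6 glial genes only moody and nrv2, a sodium pump subunit found in other tissues too, were expressed.

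Germline genes were expressed in part. aub and AGO3, the Argonaute proteins that exchange piRNAs by the ping-pong cycle, had 217, 220 and 197 CPM and 99.02, 126 and 90.3 CPM. zpg, a germline gap junction innexin, had 86.9, 121 and 108 CPM, and the differentiation factors bgcn and bam had 107, 120 and 90.9 CPM and 34.6, 36.5 and 35.6 CPM. The highest library was 1.055 times the lowest for bam and 1.11 times for aub. The ratio was 1.32 for bgcn, 1.39 for zpg and 1.40 for AGO3. zuc, the nuclease of piRNA formation, had 21.6, 22.0 and 25.4 CPM, piwi 6.11, 13.8 and 4.51 CPM and nanos, a translational repressor, 5.33, 7.31 and 4.75 CPM. vas, the helicase that defines germ cells, had only 17 reads in all, osk 31, otu 6 and ovo 9. In all, 8 of 12 germline genes were expressed (66.7%, beside 51.7% of all protein-coding genes). The median of the list was 15.6 CPM. On the same strand, bam begins 846 bases after the end of RpS27, which had 1987 CPM, aub begins 1282 bases after the end of RpL9, which had 2778 CPM, and bgcn overlaps Pym and begins 146 bases after TBPH. For piwi the opposite strand had 397 reads beside 287 on its own. The part of such neighbours in these counts was not tested.

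Junction and polarity genes of epithelia were expressed for 9 of 11 members (81.8%, beside 51.7% of all protein-coding genes). Per kb the highest was cora, the band 4.1 protein of septate junctions, with 51.7 CPM (324, 290 and 324 CPM), followed by Nrx-IV with 27.9 (144, 135 and 151 CPM). shg, which encodes E-cadherin, had only 11.4, 11.9 and 15.2 CPM, or 2.005 CPM per kb on average. grh, the transcription factor of epithelial barriers, had 23 reads in all and Fas3 had 10. The line thus had transcripts of septate junction proteins and little of the factor grh.

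Markers of other differentiated tissues were mostly not expressed, and their counts stand beside 51.7% of all protein-coding genes. No gene of 10 for gut, 10 for follicle cells or 9 matched for testis was expressed, and the summed level of these lists was at most 2.14, 1.503 and 0.316 CPM in any library. In the fat body list 2 of 10 genes were expressed (20%). The larval serum protein gene Lsp1beta had 7.16, 5.33 and 5.77 CPM and apolpp 2.01, 3.27 and 2.85 CPM. Fbp1, Yp2 and Yp3 had 3, 32 and 36 reads in all, and Lsp1alpha, Lsp1gamma, Lsp2, Fbp2 and Yp1 had 0 reads. The photoreceptor list held norpA, the phospholipase C of vision, with 80.2, 79.8 and 105 CPM, and the opsin Rh4 with 17.0, 19.8 and 11.6 CPM, beside 8 others that were not expressed, the main opsin ninaE among them with 3 reads. Of 6 tracheal genes, dysf (dysfusion, a bHLH-PAS factor of tracheal fusion cells; 3R, 26076592 to 26098711) had 504, 583 and 557 CPM. It stood without trh, the factor that specifies the trachea, which had 8 reads in all, and without the FGF receptor btl with 18 reads. serp, a chitin deacetylase gene, was the only other member expressed, with 1.75, 1.72 and 1.66 CPM. Among its same-strand neighbours, lncRNA:CR44319 overlaps dysf and had 0 reads.

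Among the listed genes that pattern the embryo a single one was expressed, beside 51.7% of all protein-coding genes. Others had some reads below the limit, such as run with 26 and gt and tin with 13 each in all. No Hox gene was expressed, and all 8 together had between 0.086 and 0.475 CPM per library. Of 16 segmentation genes, 8 had no read, and hry (the pair-rule repressor hairy) was the only member expressed, with 244, 247 and 288 CPM. Of 8 germ layer factors none was expressed, including twi and sna, the mesoderm factors of the early embryo, with 2 reads each.

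Among sex and dosage compensation genes, of which some are non-coding, 9 of 12 were expressed (75%), beside 42.9% of all genes. Sxl, the switch gene of female fate (X, 7074550 to 7098053), had 253, 263 and 261 CPM, and tra, a splicing target of Sxl, and its cofactor tra2 had 21.5, 22.5 and 20.6 CPM and 52.7, 56.4 and 52.1 CPM. The roX RNAs, which coat the X chromosome of males, had 15 reads for lncRNA:roX1 and 3 reads for lncRNA:roX2 over all libraries. The MSL protein genes were all expressed, for example msl-2 with 12.5, 15.1 and 13.6 CPM and msl-1 with 76.2, 67.3 and 89.6 CPM. dsx, the effector at the end of the cascade, had 5 reads in all, so its sex-specific splicing could not have been read at this depth. Counts per gene do not show splice forms, and Sxl is transcribed in both sexes.

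The Y chromosome gave few reads. Of 23 protein-coding Y genes, 22 had no read and FDY had 2, and the pseudogene CR41506 was above the limit for expressed genes with 1.746, 2.495 and 2.848 CPM (85 reads). X-linked protein-coding genes were expressed for 57.9% of 2162 genes, against 50.4% of 11552 genes on the large autosomal arms. The small chromosome 4 had 55 of 79 genes expressed (69.6%) and not a gene without reads. Expressed X genes had a median of 18.3, 18.1 and 18.4 CPM per kb in replicates 1, 2 and 3, against 19.9, 20.3 and 21.0 for expressed autosomal genes, a ratio of 0.895 ± 0.0228 (SD, n = 3). The ratio depended on the genes and reads counted, being 0.945 without regard to strand and 1.06 for all genes with at least 1 read, an alternative that was chosen after the data had been seen.

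Basement membrane and adhesion genes were expressed for 17 of 21 matched genes (81.0%), beside 51.7% of all protein-coding genes. Their median was 7.46 CPM per kb, against 14.7 for the hemocyte list. Their levels summed to 10343, 9199 and 7499 CPM, of which the long LanA transcript alone held 4382, 3665 and 2448 CPM. The laminin subunits LanA, LanB1 and LanB2 had 299, 234 and 262 CPM per kb on average, and their SDs over the libraries were 83.7, 30.7 and 55.9, so the 3 chains of the trimer differed by less than the spread of LanA. wb, the alternative alpha chain, had 14 reads in all. SPARC, a collagen-binding matrix protein, was higher per kb than any of them with 454 CPM per kb (542, 644 and 450 CPM), against 45.3 and 28.0 CPM per kb for the collagen IV chains Col4a1 and vkg. Perlecan (trol) had 10.7, 13.2 and 8.54 CPM, and nidogen (Ndg) 14 reads in all. The beta integrin mys had 467, 507 and 535 CPM and the alpha chain mew 34.9, 30.5 and 51.0 CPM, whereas if, the alpha chain typical of muscle, had 1.31, 1.81 and 2.53 CPM. Of the matrix metalloproteinases, Mmp1 had 237, 203 and 293 CPM, and the inhibitor Timp had 3 reads in all.

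Counts of expressed members in the pathway lists below stand beside 51.7% of all protein-coding genes. Signalling pathways differed in whether a receptor and its ligands were present together. The PVR pathway had both. Pvr (2L, 8220980 to 8239878) has its values above, and its ligand Pvf2 had 441, 427 and 537 CPM, Pvf3 20.8, 30.6 and 33.0 CPM and Pvf1 1.75, 2.41 and 2.53 CPM. Per kb, Pvf2 was at 223 CPM and Pvr at 105 CPM.

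The EGF pathway had its ligands and its inner members but hardly any receptor. Egfr (2R, 21522420 to 21559977) had 1, 4 and 0 reads in replicates 1, 2 and 3, or 0.087, 0.344 and 0 CPM, which is at or near the limit of 3 reads. The ligand spi had 467, 474 and 595 CPM, grk 15.5, 19.7 and 24.5 CPM, vn 16.2, 15.4 and 15.3 CPM and Krn 4.45, 5.85 and 5.70 CPM. The remaining 9 of the 14 genes were expressed as well, among them rho, which releases the ligands, with 16.2, 24.1 and 32.3 CPM and the ETS factor pnt with 416, 345 and 489 CPM. Egfr was the only one of the list that was not, while Ras85D, which other receptors also use, had 161, 144 and 172 CPM.

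FGF genes also included ligands nearly without receptors, but only 2 of 6 genes were expressed (33.3%). bnl, the ligand Branchless, had 137, 168 and 164 CPM. Its receptor btl had 0.087, 0.344 and 1.03 CPM and the other FGF receptor htl 2 reads in all, and the adaptor stumps had 6. The ligand pyr was at 3.49, 5.51 and 5.93 CPM, and the ligand ths had 1 read in all. A transcript of the ligand was thus present in a line nearly without the receptors.

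The insulin pathway had the reverse. The receptor InR had 292, 286 and 384 CPM, and chico, Akt, Pi3K92E, foxo, mTor and S6k were all expressed, S6k with 330, 312 and 370 CPM. Of the ligands Ilp1 to Ilp5 had 0 reads, Ilp7 had 1 read and Ilp8 had 8, and Ilp6 alone was expressed with 8.03, 6.28 and 15.7 CPM. ImpL2, a secreted protein that binds insulin-like peptides and is also induced by ecdysone, had 1062, 1206 and 945 CPM.

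Cytokine and immune pathways were largely complete. In JAK/STAT, the receptor dome had 60.6, 54.0 and 63.1 CPM and Stat92E 243, 223 and 285 CPM. The cytokine upd3 had 17.8, 21.9 and 65.7 CPM and its target Socs36E 107, 113 and 199 CPM, both highest in replicate 3, and upd1 had 0 reads. All 8 Toll pathway genes were expressed, with Tl at 6.29, 5.33 and 14.2 CPM and the inhibitor cact at 157, 137 and 262 CPM. In the IMD pathway 9 of 11 were expressed. The membrane receptor PGRP-LC had 9 reads in all, but the intracellular receptor PGRP-LE had 61.0, 57.2 and 69.7 CPM and the factor Rel 144, 128 and 168 CPM. In the TNF pathway the receptor wgn had 89.2, 81.2 and 108 CPM and grnd, the other receptor, 1 read.

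Notch, Wnt, Hedgehog and BMP genes were mostly expressed inside the cell and sparse among ligands. N had 77.7, 87.2 and 74.3 CPM and its ligand Ser 37.0, 30.02 and 28.8 CPM, while the ligand Delta had 12 reads in all. Of 14 genes of this list 10 were expressed. Of 7 Wnt genes only Wnt5 was expressed, with 75.9, 56.8 and 85.8 CPM, and wg had 5 reads in all. The effector arm (beta-catenin) had 370, 367 and 358 CPM. hh had 7 reads in all, and 7 of 8 Hedgehog genes were expressed, ptc at 25.5, 22.9 and 35.9 CPM and the effector ci at 2.62, 5.25 and 4.83 CPM. For the TGF-beta family, dpp had 22 reads, 21 of them in replicate 3, while gbb had 40.2, 51.4 and 47.1 CPM and the activin-like ligands daw and myo 35.2, 36.3 and 38.4 CPM and 75.01, 86.4 and 85.1 CPM. The type I receptor babo, which they use, had 110, 114 and 139 CPM. In the Hippo pathway 10 of 11 genes were expressed, and ds, the cadherin that binds Fat, had 0 reads, with ft at 5.33, 4.47 and 4.03 CPM.

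**Figure D3:**
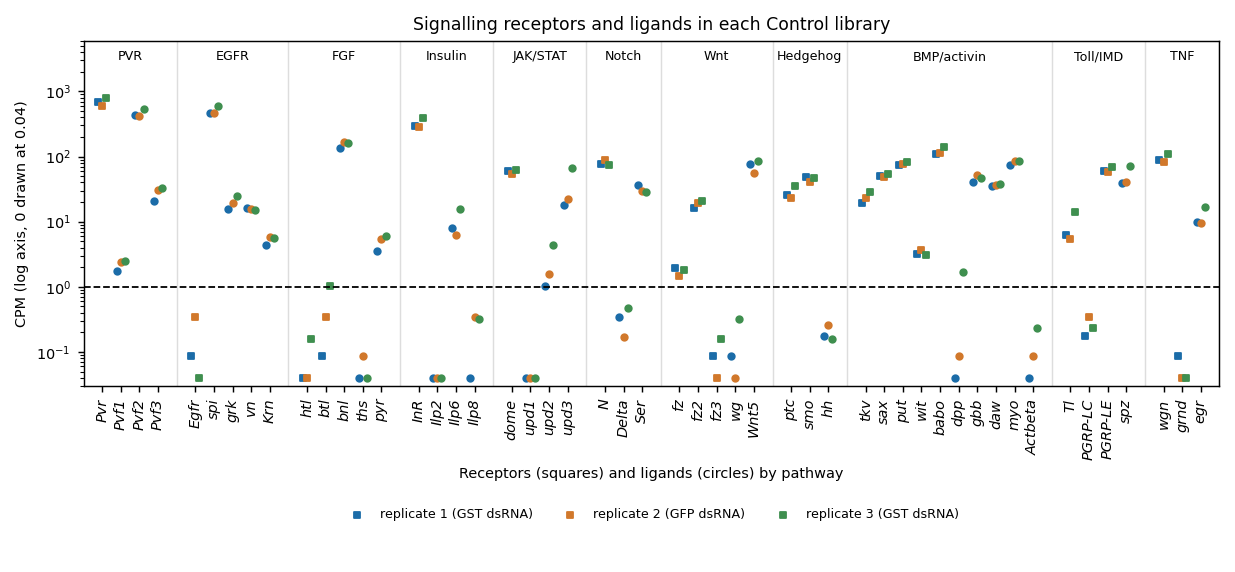
CPM in each Control library (log axis, colours for replicates) of receptors (squares) and ligands (circles) of 11 pathways; counts of 0 are drawn at 0.04 and the dashed line marks 1 CPM. Egfr, htl, btl, PGRP-LC and grnd lie at or near the bottom beside present ligands such as spi and bnl, and Ilp2, upd1, Delta, wg, hh, dpp and Actbeta lie low beside present receptors.

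Genes of the response to ecdysone, the moulting hormone, were present without those of its synthesis. The receptor subunits EcR and usp had 54.0, 46.5 and 65.9 CPM and 40.8, 33.0 and 37.1 CPM, and 12 of 15 response genes were expressed, among them Eip75B with 125, 108 and 141 CPM and br with 64.6, 54.5 and 79.3 CPM. Hr3, an early-late response gene, had 0 reads, and ImpE1 and ImpE2 had 5 and 1. Of 7 matched genes for the synthesis of the hormone none was expressed, and sro had the most with 29 reads in all.

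The machinery that the dsRNA experiment and the study's targets rely on was present. All 9 genes of the RNA interference list were expressed, with AGO2, the slicer of siRNAs, at 620, 595 and 747 CPM, Dcr-2 at 260, 230 and 236 CPM and its partner r2d2 at 37.7, 42.1 and 46.8 CPM. All 20 genes listed for the complexes around the ATPase DOM were expressed. dom itself had 344, 341 and 438 CPM, with its splice forms pooled, and Tip60, the acetyltransferase, 20.4, 19.6 and 23.6 CPM. Per kb dom was at 28.7 CPM and Tip60 at 8.78 CPM. The other listed subunits that the paper names lay between Brd8 with 9.81 and rept with 81.6 CPM per kb. Eaf6 and Act5C had 9.55 and 2527 CPM per kb. The histone variant gene His2Av had 888, 989 and 884 CPM.

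Whole families of sensory, cuticle, gut and reproductive genes had few or no expressed members. Of the sensory receptors, 4 of 59 odorant, 5 of 60 gustatory and 8 of 60 ionotropic receptor genes were expressed, beside 51.7% of protein-coding genes. The members with the most reads were the odorant receptor Or43b with 10.3, 12.4 and 8.23 CPM, the gustatory receptor Gr94a with 22.2, 36.9 and 38.7 CPM, and the ionotropic receptor Ir68a, known from moist air sensing, with 56.4, 58.2 and 70.5 CPM. Or43b also had 561 antisense reads beside 366 sense reads, so it shares its place with transcription of the other strand. Ir68a begins 282 bases after lncRNA:CR44718, which had 20.4 CPM. Obp44a had the most reads of the odorant-binding proteins, of which 2 of 51 were expressed, with 37.6, 38.8 and 26.0 CPM.

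No member of the 25 Tweedle cuticle proteins, 23 Osiris proteins, 47 seminal fluid proteins, 16 Jonah proteases, 8 Turandot stress proteins or 7 glue proteins was expressed. Of the 70 Cpr cuticle proteins only Cpr49Ac was, with 3.93, 3.79 and 16.0 CPM. Antimicrobial peptides, the products of Toll and IMD signalling, were at a low level, with Drs (drosomycin) alone expressed of 20 genes, at 2.45, 2.15 and 2.22 CPM. Other families were mixed, with shares of expressed members on both sides of the 51.7% of all protein-coding genes. Among 35 glutathione S-transferases, 27 were expressed, and GstD1 had the most reads with 835, 1204 and 674 CPM. Among 82 cytochrome P450 genes 29 were expressed, and Cyp6a23 had the most reads with 67.1, 79.2 and 77.4 CPM. The nicotinic receptor genes nAChRbeta3 and nAChRbeta2 had 113, 90.2 and 85.7 CPM and 85.5, 85.3 and 69.3 CPM, but 5 of the 10 subunit genes had some reads below the limit and 1 none. nAChRbeta3 had 1015 antisense reads beside 3423 sense reads.

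**Figure D4:**
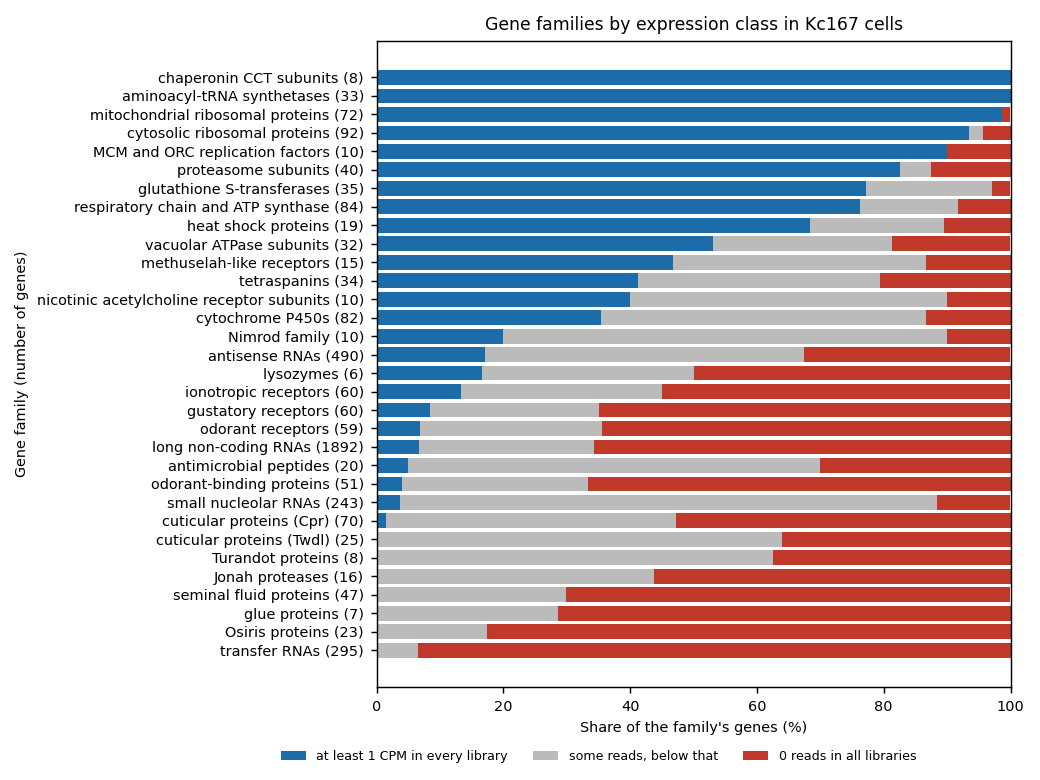
Share of genes of each of 32 families (number of genes in brackets) with at least 1 CPM in every Control library, with reads below that, and with 0 reads. CCT subunits and aminoacyl-tRNA synthetases reach 100%, and the Tweedle, Osiris, seminal fluid, Jonah, Turandot and glue families have no expressed member.

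Among 2477 ncRNA genes 8.96% were expressed, against 51.7% of 13834 protein-coding genes. The most-read of them, lncRNA:CR42862, had 2330, 1938 and 2038 CPM, followed by the hairpin RNA gene hpRNA:CR18854 with 482, 515 and 468 CPM. These were similar between libraries. Of 312 tRNA genes 3 were expressed, all of them mitochondrial (mt:tRNA:Ala-TGC, mt:tRNA:Tyr-GTA and mt:tRNA:Lys-CTT), and of 258 snoRNA genes 10, but RNAs without a poly(A) tail were selected against, so these classes were not measured as they occur in the cell.

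Replicates of the control were alike for most genes and differed for some. Over the 7491 expressed genes the Pearson correlation of log2(CPM + 1) across genes, which are not independent replicates, was 0.990 for replicates 1 and 2, 0.986 for 1 and 3 and 0.982 for 2 and 3. The median coefficient of variation was 21.2% for genes from 1 to 10 CPM, where counting alone gives 13.7%. It was 10.4%, 9.88% and 9.42% in the next higher steps of 10-fold, where counting gives 4.78%, 2.19% and 0.673%. Counting error thus left most of the variation above 10 CPM to differences between the libraries. Replicate 3 stood apart most, with 41 of 6224 genes of at least 10 CPM over 2-fold above both others, beside 2 genes for replicate 1 and 5 for replicate 2. Genes over 2-fold below both others numbered 7, 12 and 5 in replicates 1, 2 and 3.

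Of these genes, Apoltp, which encodes a lipid transfer particle (2L, 9634179 to 9656026), varied most, with 6.20, 4.56 and 45.7 CPM. MtnA, a metallothionein that binds copper and cadmium (3R, 9783407 to 9784370), had 320, 591 and 68.7 CPM. Replicate 3 was the highest library for Apoltp and the lowest for MtnA. mfas, a secreted cell adhesion protein, had 41.2, 28.5 and 175 CPM, the sulfate transporter Esp 6.72, 10.8 and 51.6 CPM and Cyp6a8 18.3, 9.12 and 59.0 CPM. Prx6c, a peroxiredoxin gene, had 42.4, 35.8 and 5.38 CPM and CG11825 170, 183 and 25.9 CPM. Both were lowest in replicate 3, and they are neighbours on 2R, facing each other with 652 bases between their ends. Ama, an immunoglobulin-domain adhesion protein, had 27.3, 5.08 and 28.3 CPM and was lowest in replicate 2, the library with GFP dsRNA. sff and CG33307 completed the 10 genes with the largest ratios, which lay between 4.88 and 10.03. A replicate and its day, medium or batch of cells are not separated by the labels, and no test between the control sequences was made, with 2 libraries against 1.

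**Figure D5:**
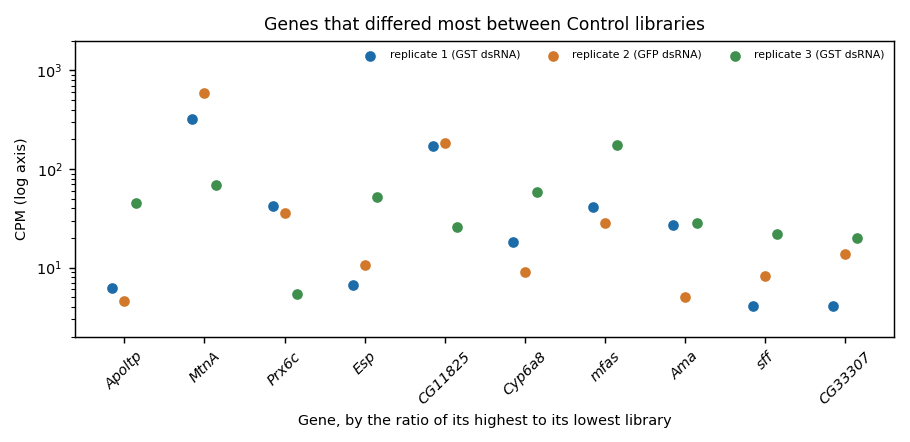
CPM in each Control library (log axis, colours for replicates and dsRNA) of the 10 genes with a mean of at least 10 CPM and the largest ratio of the highest to the lowest library. Replicate 3 is highest for Apoltp, Esp, Cyp6a8, mfas, Ama, sff and CG33307 and lowest for MtnA, Prx6c and CG11825.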

How the data were processed

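Total RNA of Kc167 cells mixed with D. virilis cells was poly(A)-selected, and directional libraries were sequenced. The authors mapped the reads with STAR version 2.5.3a to dm6 and separately to D. virilis. They dropped multi-mapping reads and deposited counts per gene for each strand setting, neither filtered nor normalized. The deposited counts in the column for the reverse strand, which held most gene reads, were used. Counts in the column of the opposite strand gave the antisense reads, and the column without regard to strand was an alternative. Rows for reads without a gene were left out of library totals, where reads on no feature or on several genes were 4.74% to 5.36%. Totals were 11452017 to 12642096 gene reads per library.

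CPM was computed per 1000000 D. melanogaster gene reads and divided by merged exon length for CPM per kb. A gene was taken as expressed with at least 1 CPM in each of the 3 libraries. Symbols, biotypes, positions and lengths came from the Ensembl annotation of BDGP6.54, newer than the one used for counting, and 17343 of the 17481 identifiers were found in it.

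The 36 gene lists (401 of 405 entries matched, 392 distinct genes), the 33 families, defined by symbol, and the choice of libraries were set with earlier results of these data known. The genes named are members of the lists, the 20 highest genes per kb and the 10 highest by CPM, the leading members of mostly silent families, and the 10 most variable genes of at least 10 CPM. CCT1, CCT2, Mcm2, Orc5, GstD1, hpRNA:CR18854 and other family or ncRNA genes outside this rule were named as examples after their values were seen. No groups were compared and no test was run. The script that calls genes expressed was tested on simulated counts with known levels. Alternatives were other thresholds, other scalings, protein-coding genes only, a pseudocount of 0.1 in place of 1 CPM and each replicate left out. A description of promoter motifs was planned and not run, since no genome sequence was used here. Software was Python 3.11.15, pandas 2.3.3, numpy 2.4.6, matplotlib 3.10.9, R 4.3.3 and edgeR 4.0.16, which was used for TMM factors only.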

Additional observations from a re-analysis of the deposited data

Results flagged for a closer look

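Reads on the strand opposite to a gene were outside the main measurement. Among protein-coding genes without an annotated gene on the other strand within 1000 bases, 50 had at least 30 antisense reads over the control libraries and more antisense than sense reads. In 18 of these the sense strand had at most 3 reads, the limit that a count of 0 allows. All of the 18 but KaiR1D, with 7, 3 and 20, had more than 3 antisense reads in every library. The 5 with the most antisense reads are given here. net, a bHLH transcription factor gene of wing vein patterning, had 82, 98 and 71 antisense reads in replicates 1, 2 and 3, or 251 in sum, beside 1 sense read. CG30184 had 124 antisense reads beside 0 sense reads, and CG10298 had 92 beside 2. Ugt36F1, a UDP-glycosyltransferase gene, had 85 beside 2, and CG17917 had 76 beside 0. The source of these reads was not tested.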

How the results depend on the processing

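Of 74 values recomputed under other settings, 66 stayed within the replicate spread or within 1.5 times the main count. Of the 8 others, the share of reads in the 100 most-read genes was 29.6% for protein-coding genes only. The muscle list had 2 members expressed at 5 CPM or more in every library and 4 at 1 CPM per kb or more, and the neuron list 2 at 1 CPM per kb or more. The ratio of X to autosomal medians was 0.945 without regard to strand and 1.06 over genes with at least 1 read, and the cause was not tested. With a replicate left out, the share of X protein-coding genes expressed lay between 58.3% and 58.7%, the number of expressed genes between 7541 and 7600, and genes without reads between 5823 and 6196, as fewer libraries enter. Among the settings for the number of expressed genes, the lowest was 6592 at 5 CPM and the highest 7909 at 0.5 CPM. Genes with at most 3 reads in sum were 7503. Scaling by TMM gave 7481 expressed genes. The alternative for promoter motifs was not run. No paired analysis was possible because a single group was described and no test was made. Depth limits statements on absence to levels above 0.084 CPM over the libraries, and absence cannot be stated for genes whose exons lie within those of others.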

Other observations

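A few values outside the lists were singled out after they had been seen. MtnA was the only metallothionein gene with more than a few reads. MtnB had 0 reads in all libraries, MtnC 1, MtnD and MtnE 4 each and MtnF 5, against 11406 for MtnA. The heat-inducible Hsp70 copies, whose levels are uncertain as near-identical genes, were all highest in replicate 1 among the B copies, Hsp70Bb with 24.01, 12.3 and 9.97 CPM and Hsp70Bc with 12.1, 6.88 and 4.90 CPM. The A copies Hsp70Aa and Hsp70Ab had 4 and 3 reads in all.

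Of the 17481 gene identifiers, 138 had no match in the annotation, and 67 of them were expressed and together held 1.10% of gene reads. The highest of them, FBgn0260441, had 1756, 1394 and 1597 CPM, and no gene name was given to it.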
